A study of Gallus gallus with 106 samples.

Results

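The data describe how gene expression of chicken satellite cells changed between 24 and 36 h of myogenic differentiation at 1% O2. The libraries were chosen by their labels alone, as every library kept at 1% O2 and harvested at 24 h (6 libraries) or 36 h (6 libraries). They are 24 of the 106 samples of the series, or 12 of its 53 libraries, since each library was measured in 2 technical replicates that were summed. All cells were primary satellite cells of wild-type (WT) broiler chickens, taken from the breast muscle, Pectoralis major. They were grown in serum-rich medium, then moved to a medium with less serum to start differentiation, and kept from then on at 1% O2 (hypoxia) or 20% O2 (normoxia). Times count from that change of medium, and the same cells were also harvested before it (0 h) and at 12 and 48 h. The 12 normoxia libraries of the same times, 6 at 24 h and 6 at 36 h, served as the comparison between oxygen levels.

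Satellite cells are the stem cells of skeletal muscle. On differentiation they leave the cell cycle, switch on myogenic regulatory factors such as myogenin, fuse into myotubes and build the contractile apparatus. Low oxygen stabilises HIF transcription factors, which raise genes of glycolysis and blood vessel growth, and it can slow or alter muscle differentiation.

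The assay was targeted RNA-seq: transcripts of a chosen panel of 569 genes were amplified with primers that span exon boundaries, and the products were sequenced. The counts of 453 genes sufficed for a test. The 12 hypoxia libraries held 204271 to 1325157 counts, with medians of 729303 at 24 h and 651605 at 36 h. Levels are normalised read counts (CPM, the usual scaling to library size, with a correction for library composition), and a change is the log2 ratio of 36 h to 24 h with its standard error (SE). Since each primer pair has its own yield, CPM are compared within a gene and never between genes. A gene was called changed at a Benjamini-Hochberg adjusted p under 0.05 over the 453 genes in the quasi-likelihood test of edgeR. Whether replicates were taken from different birds is not stated in the labels, so the p-values speak to the spread of these cultures only, and that spread may be technical. In bulk cultures, fewer cells of a type and less RNA per cell cannot be told apart.

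Markers of the labelled cell type were present. PAX7, the transcription factor that marks satellite cells, stood at 9173 ± 2418 CPM (mean ± SD, n = 6) at 24 h and 8489 ± 1560.3 at 36 h. The myogenic regulators MYOD1 and MYOG stood at 4303 ± 785 and 5144 ± 821 CPM at 24 h. Of 9 markers of other cell types, the leukocyte gene PTPRC and the endothelial gene PECAM1 had at most 2 and 5 counts in any of the 12 libraries. PTPRC and PECAM1 were each at 0 in 4 of the 24 h and 2 of the 36 h libraries. The other 7 were tested. Among them were the endothelial VWF (29 to 185 counts in these libraries) and the fat cell gene ADIPOQ (720 to 4760 counts). The smooth muscle gene CNN1, also among the 7, had 524 to 4169 counts. The immune gene CD14, another of the 7, had 0 to 212 counts at 24 h and 3 to 127 at 36 h. At both times its highest library was replicate 1. Of the 7, 0 were called by edgeR or DESeq2, with 1 at an unadjusted p under 0.05. The largest value was that of the endothelial ENG (-0.82, adjusted p = 0.203). Without 36 h replicate 4, ENG was called lower (-1.31, adjusted p = 0.0128) and ADIPOQ higher (0.22, adjusted p = 0.0479). With all libraries the median log2 change of the 7 was -0.48. The fibroblast genes PDGFRA (1176 to 6803 counts) and DPT (212 to 1936 counts), which were not among the 9 markers, had counts in all 12 libraries. The part of other cells in the results below was not tested.

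Some libraries stood apart. A set of 16 genes was found in these data, by a correlation within groups of at least 0.8 with the mean of 6 starting genes. The 6 are part of the set, and so is CD14 of the other-cell markers. The libraries were split at the widest gap in its mean log2 CPM. In 17 of the 53 libraries this mean was at least 7.79, against at most 6.58 in the others. In hypoxia, replicate 1 was such a library both at 24 h (9.55) and at 36 h (9.22). The other hypoxia libraries of these 2 times lay between 5.03 and 6.40. Replicate 1 was also above the gap at 12 and 48 h in hypoxia (9.43 and 8.18) and at all normoxia times but 24 h (6.24). Other replicate numbers were above it at 12, 24 and 48 h in normoxia and at 48 h in hypoxia. Since 24 and 36 h in hypoxia held 1 each, the number of such libraries was balanced between the groups compared. Of the 16 genes 0 were called, but they were chosen for shared swings within groups. A call was therefore unlikely, and this count does not show that the set left the step unaffected. Replicate 4 at 36 h had 235311 counts. It was the highest of its group in 21 of the 27 genes called lower, 8 of the 14 called higher and 183 of all 453. It was the lowest in 140 of the 453. At 24 h, replicate 2 (251537 counts) was the highest in 17 of the 27 genes called lower and in 124 of the 453. Replicate 5 at 24 h (795748 counts) was the lowest in 18 of the 27 and in 169 of the 453. Leaving out single libraries moved the number of called genes from 41 to 88 without 36 h replicate 4, and to 27 without 24 h replicate 2 or without 36 h replicate 3. Without any other single library it lay between 29 and 60. Depth followed the replicate number in the same way at both oxygen levels. At 12 and 36 h only replicate 4 held under 300000 counts, and at 24 and 48 h only replicates 2 and 6. Each 12 h step between 12 and 48 h thus compares groups in which different replicates were shallow. The part of this depth pattern and of these libraries in single results was not tested. The calls that leaving out 1 hypoxia library ended are given beside each gene named. Leaving out several libraries ended further calls. Without the 3 hypoxia libraries under 300000 counts these included DHCR7, RASD1 and LPIN1 (adjusted p = 0.186, 0.125 and 0.0764). Without 1 replicate number in all groups they included ABCA1 (2 or 3), RASD1 (2 or 6) and DHCR7 (4 or 6).

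Between 24 and 36 h, 41 of the 453 genes (9.05%) changed, 14 higher (3.09%) and 27 lower (5.96%), and 94 (20.8%) had an unadjusted p under 0.05. The median log2 change of all 453 genes was 0.00, and that of the called genes was 0.66 in size. Only 8 of the 41 changed more than 2-fold and 18 changed less than 1.5-fold. In 32 of the 41, all 6 libraries at 36 h lay on one side of the 24 h mean. That count follows in part from calling the genes on these same libraries. In 16 of the 41 the groups did not overlap at all, 8 higher and 8 lower, against 18 of all 453 genes (3.97%; 8 or 1.77% higher and 10 or 2.21% lower). The excess of lower calls was not seen under all settings. With library totals 14 genes were higher and 16 lower, and with 7 reference genes as the scale 9 were higher and 9 lower. Leaving out all 17 libraries with the high gene set gave 14 higher and 14 lower, and leaving out 24 h replicate 2 gave 14 and 13. DESeq2 gave 18 higher and 36 lower, and leaving out 36 h replicate 4 gave 27 and 61.

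**Figure D1:**
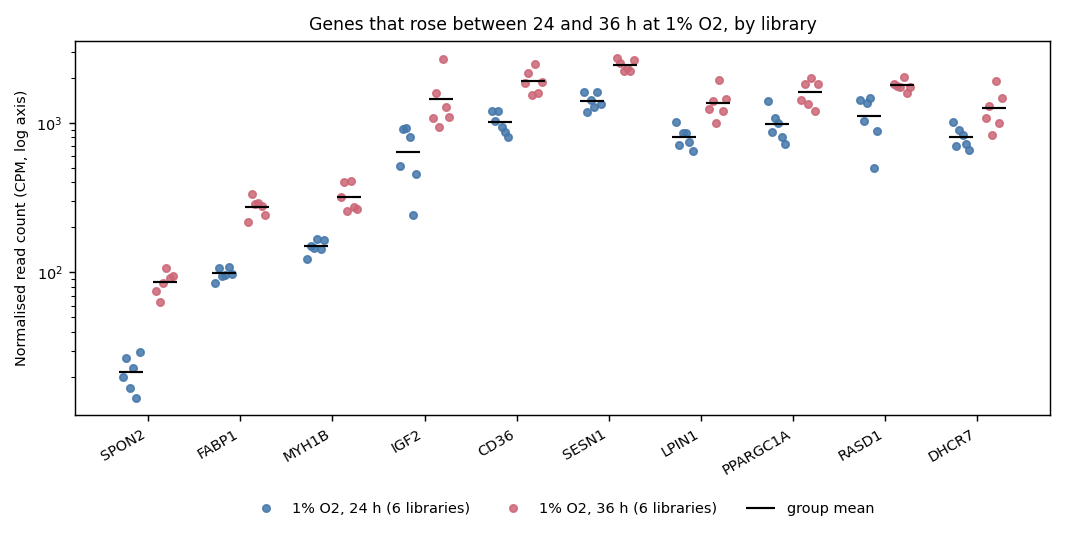
Normalised read counts (CPM, log axis) of the 10 genes with the largest called rises at 1% O2, each point 1 library and each bar the mean of 6. In SPON2, FABP1, MYH1B, IGF2, CD36, SESN1 and RASD1 every 36 h library lies above every 24 h library.

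Among contractile and muscle structure genes, 2 of 13 tested rose and 0 fell, by edgeR and by DESeq2. Over all 453 genes tested, 14 (3.09%) rose in edgeR. Of the 13, 0 of those with a lower value reached an unadjusted p under 0.05. CAPN3, a muscle protease, was called lower without 36 h replicate 4 (-0.92, adjusted p = 0.0256). The median change of the 13 was 0.01. MYH1B, one of the skeletal myosin heavy chain genes of the chicken, ran from 124 to 168 CPM around a median of 148 at 24 h and from 259 to 407 CPM around a median of 296 at 36 h. The groups did not overlap, and the rise was 2.15-fold (log2 1.11, SE 0.17, adjusted p = 2.35e-06). LDB3, which encodes a protein of the Z-disc, went from 1972 to 3232 CPM around a median of 2419 to values from 2658 to 3459 CPM around a median of 3323 (log2 0.39, SE 0.12, adjusted p = 0.0301). The lowest 36 h library of LDB3 lay within the 24 h range, and all 6 lay above the 24 h mean. The LDB3 call was lost when 24 h replicate 1, 4 or 5 or 36 h replicate 2, 3, 5 or 6 was left out, with values from 0.33 to 0.38 and adjusted p from 0.0534 to 0.0847. Other myosin heavy chains did not pass, with values of 0.01 for MYH1D, -0.13 for MYH1E and -0.14 for MYH1F. MYH1D had been at 3632 ± 317 CPM at 12 h and was at 4524 ± 228 and 4560.4 ± 413 CPM at 24 and 36 h. Values of single myosin genes are uncertain, because the treatment of reads that match near-identical copies is not given in the sources. The skeletal actin ACTA1 (0.08), desmin (DES, -0.02), the calcium buffer PVALB (0.42) and CAPN3 (-0.50) did not pass with all libraries.

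Myogenic regulators gave 0 calls of 7 tested in edgeR, with 1 at an unadjusted p under 0.05 and 1 by DESeq2, which was MYF5. In edgeR the cofactor MEF2A was called lower without 36 h replicate 4 (-0.82, adjusted p = 0.0256). MYOD1, which commits cells to the muscle lineage, had a log2 change of 0.02 (SE 0.09) and myogenin, MYOG, of 0.04 (SE 0.09). In both genes the 36 h range lay almost inside the 24 h range. MYF5, an early regulator, had a value of -0.56 (SE 0.20, adjusted p = 0.0782), and its libraries ran from 5247 to 9017 CPM around a median of 7212 at 24 h and from 3012 to 6468 CPM around a median of 4689 at 36 h. MYF6, a regulator of late differentiation, ran from 70.2 to 585 CPM at 24 h and from 25.3 to 232 at 36 h, and its value of -1.16 did not pass (adjusted p = 0.308). Without 24 h replicate 2, its highest library, the MYF6 value was -0.76. Of 5 tested genes of satellite cell identity, 1 fell and 0 rose, while DESeq2 called 1 higher (ITGA7) and 2 lower. Among all 453 genes edgeR called 14 (3.09%) higher and 27 (5.96%) lower. In edgeR ITGA7 was called without 24 h replicate 2 or 3 or 36 h replicate 2 or 6, NCAM1 lower without 24 h replicate 1, and CD34 lower without 36 h replicate 4 (-1.73).

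The called identity gene was PAX3, a transcription factor of muscle progenitors. It ran from 762 to 1941 CPM around a median of 1225 at 24 h and from 382 to 1282 CPM around a median of 573 at 36 h, a fall of 1.83-fold (log2 -0.87, SE 0.23, adjusted p = 0.0103). In PAX3 5 of 6 libraries lay below the 24 h mean, and the sixth was 36 h replicate 4 at 1282 CPM. The PAX3 call was lost without 24 h replicate 2 (-0.70, adjusted p = 0.0632). PAX7 had a value of -0.11 (SE 0.15) and ITGA7, an integrin of muscle cells, of 0.73 (adjusted p = 0.0512). HEY1, a target of Notch that restrains differentiation, fell in the same interval (log2 -0.62, SE 0.21, adjusted p = 0.0478). Its libraries ran from 426 to 959 CPM around a median of 666 at 24 h and from 338 to 727 CPM around a median of 391 at 36 h, the highest being 36 h replicate 4. The HEY1 call was lost when 24 h replicate 2, 3, 4 or 6 or 36 h replicate 1, 2, 3, 5 or 6 was left out, with values from -0.50 to -0.64 and adjusted p from 0.0512 to 0.159. NOTCH1 (-0.75, adjusted p = 0.203) and NOTCH2 (-0.18) did not pass. Without 36 h replicate 4, where 61 of all 453 genes were called lower, all 3 tested Notch genes were. NOTCH1 stood at -1.09 and NOTCH2 at -0.24, and NOTCH2 was also called without 24 h replicate 5 (-0.25). Myostatin (MSTN), an inhibitor of muscle growth, had a value of -0.26 at 17.2 to 92.4 CPM in the 24 h libraries, and neither it nor its antagonist follistatin (FST, -0.12) passed. Without 24 h replicate 2 the MSTN value was 0.06.

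Of 33 lipid genes tested, 4 rose (FABP1, CD36, LPIN1 and PPARG) and 2 fell (DGAT2 and ABCA1), with a median of 0.11. Over all 453 genes tested, 14 (3.09%) rose, 27 (5.96%) fell and the median was 0.00. Without 36 h replicate 4, 7 rose (27 of all 453). With reference genes as the scale 3 rose and 0 fell (9 and 9 of all 453). FABP1 (chr4:85982308-85986038, reverse strand, 4 exons, on build galGal6 as are all positions given), a fatty acid-binding protein of the cytosol, ran from 85.5 to 109 CPM around a median of 96.8 at 24 h and from 219 to 332 CPM around a median of 284 at 36 h. The groups were far apart, with a rise of 2.80-fold (log2 1.48, SE 0.19, adjusted p = 3.88e-08). CD36 (chr1:11333589-11371413, reverse strand, 15 exons), which takes up long-chain fatty acids at the cell surface, ran from 808 to 1203 CPM around a median of 981 at 24 h and from 1548 to 2489 CPM around a median of 1864 at 36 h. Again every 36 h library was above every 24 h library (log2 0.92, SE 0.14, adjusted p = 1.85e-06). The fatty acid-binding proteins FABP3, FABP4, FABP5, FABP6 and FABP7 had values between 0.09 and 0.17 and FABP2 one of 0.33 (adjusted p = 0.0875), and none of the 6 passed in edgeR with all libraries. FABP4 was called without 24 h replicate 5 (0.25) or 36 h replicate 4 (0.25).

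LPIN1 encodes an enzyme that makes diacylglycerol for fat synthesis and also acts as a coactivator in the nucleus. It ran from 652 to 1011 CPM around a median of 806 at 24 h and from 992 to 1933 CPM around a median of 1321 at 36 h (log2 0.75, SE 0.17, adjusted p = 0.00176), with the lowest 36 h library inside the 24 h range. PPARG, the nuclear receptor that drives fat storage genes, ran from 2111 to 2502 CPM around a median of 2304 at 24 h and from 2644 to 3042 CPM around a median of 2937 at 36 h. Its groups did not overlap although the rise was only 1.27-fold (log2 0.34, SE 0.07, adjusted p = 0.00102). ABCA1, which exports cholesterol from cells, fell by 1.66-fold (log2 -0.73, SE 0.18, adjusted p = 0.00406), from 898 to 2003 CPM at 24 h to 675 to 1754 at 36 h. In ABCA1 5 libraries at 36 h lay at or below 839 CPM and replicate 4 lay at 1754. DGAT2, which completes triglyceride synthesis, rested on 4 to 17 raw counts per library at 24 h and 0 to 10 at 36 h (log2 -1.34, SE 0.44, adjusted p = 0.043). The DGAT2 call was lost when 24 h replicate 2, 4 or 6 or 36 h replicate 2, 3 or 6 was left out, with values from -1.10 to -1.45 and adjusted p from 0.0516 to 0.119, and it was also lost in DESeq2 (adjusted p = 0.0558). Enzymes of fatty acid synthesis were not called by edgeR, with values of 0.06 for FASN, 0.57 for ACACA (adjusted p = 0.0733) and 0.18 for SCD. DESeq2, which called 6 lipid genes higher and 1 lower, called ACACA (0.55, adjusted p = 0.0495) and the lipid droplet protein PLIN2 (0.34, adjusted p = 0.0033). In edgeR ACACA was called without 24 h replicate 1, and PLIN2 without 24 h replicate 5 or 6 or 36 h replicate 4.

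Sterol synthesis genes, a list added after values were seen, had 2 rises and 0 falls among 7 tested, with 0 falling values at an unadjusted p under 0.05 or by DESeq2. Over all 453 genes tested, 14 (3.09%) rose in edgeR. DESeq2 called 1 rise of the list, that of DHCR7. In edgeR the list also held 1 rise when 24 h replicate 2, 3 or 4 or 36 h replicate 1, 2, 3 or 6 was left out. With reference genes as the scale it held 1 as well. DHCR7, an enzyme of the last steps to cholesterol, ran from 657 to 1008 CPM around a median of 778 at 24 h and from 828 to 1913 CPM around a median of 1184 at 36 h, with all 6 libraries above the 24 h mean (log2 0.64, SE 0.17, adjusted p = 0.00666). The earlier enzyme SQLE (0.09) and the regulators SREBF2 (0.02) and INSIG1 (0.01) did not pass.

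Of 15 mitochondrial genes tested, 1 rose and 0 fell, and the median was -0.06. Again 0 falling values passed at an unadjusted p under 0.05 or by DESeq2. All 453 genes tested held 14 rises (3.09%) and 27 falls (5.96%). The fusion gene MFN2 was called lower without 36 h replicate 4 (-0.45, adjusted p = 0.0258). PPARGC1A, the coactivator that promotes the formation of mitochondria, ran from 720.3 to 1406 CPM around a median of 931 at 24 h and from 1211 to 1989 CPM around a median of 1623 at 36 h. The groups overlapped in the highest 24 h library alone (log2 0.69, SE 0.15, adjusted p = 0.001). The mitochondrial transcription factor TFAM (-0.03), the regulator NRF1 (-0.01), the inner membrane fusion gene OPA1 (-0.06) and COX4I1 of the respiratory chain (-0.13) did not pass. Among 24 tested carriers of the mitochondrial inner membrane family SLC25, a list added after values were seen, 1 rose, which was SLC25A26. That share is near the 3.09% of all 453 genes that rose. Of the 24, 0 fell in edgeR or DESeq2, and 0 falling values reached an unadjusted p under 0.05. SLC25A26, which imports the methyl donor S-adenosylmethionine, went from a median of 1182 to 1582 CPM (log2 0.35, SE 0.11, adjusted p = 0.0435). The SLC25A26 call was lost when 24 h replicate 2, 3, 4 or 6 or 36 h replicate 1, 2 or 6 was left out, with values from 0.27 to 0.35 and adjusted p from 0.0682 to 0.152. The 24 carriers had a median of 0.11 and ran from -0.07 to 0.40. The number of rising carriers was 3 without 36 h replicate 4 (27 of all 453 genes rose), SLC25A17 and SLC25A46 being the added ones.

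SESN1, a stress-responsive inhibitor of mTOR signalling, was the only call among 6 autophagy and stress genes tested (14 or 3.09% of all 453 rose). Its 24 h libraries ran from 1182 to 1619 CPM around a median of 1388 and its 36 h libraries from 2214 to 2732 CPM around a median of 2437. The groups were well separated, with a rise of 1.74-fold (log2 0.80, SE 0.10, adjusted p = 1.71e-08). RASD1, a Ras-related protein induced by glucocorticoids, ran from 499 to 1473 CPM around a median of 1202 at 24 h and from 1594 to 2029 CPM around a median of 1754 at 36 h (log2 0.67, SE 0.19, adjusted p = 0.0172). The spread of RASD1 was wider at 24 h, and the lowest 36 h library still lay above the highest 24 h library.

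The largest rise of all was in SPON2 (chr4:84891894-84898886, forward strand, 7 exons), a secreted protein of the extracellular matrix. It ran from 14.6 to 29.2 CPM around a median of 21.5 at 24 h and from 63.3 to 108 CPM around a median of 88.9 at 36 h, a 4.11-fold rise (log2 2.04, SE 0.23, adjusted p = 4.21e-09). The raw counts were low, 6 to 22 per library at 24 h and 27 to 96 at 36 h, and the groups did not overlap. THBS1, a matrix glycoprotein that can activate TGF-beta, fell from 3516 to 3838 CPM down to 2626 to 3096 CPM. The fall was 1.30-fold in a gene with little spread (log2 -0.38, SE 0.06, adjusted p = 1.85e-06). SPON2 and THBS1 were the only calls among 19 tested matrix and fibroblast genes, whose median was 0.04. Calls of either sign numbered 41 (9.05%) among all 453 genes. Collagens COL1A1, COL3A1, COL4A1, COL5A1 and COL6A1 had values between 0.02 and 0.09, and fibronectin (FN1) had one of 0.03. FBN1, the microfibril protein fibrillin, fell as well (log2 -0.35, SE 0.11, adjusted p = 0.0374) and was named after its values were seen. The FBN1 call was lost without 24 h replicate 2, 3 or 4 or 36 h replicate 1, 3, 5 or 6, with values from -0.28 to -0.36 and adjusted p from 0.057 to 0.148.

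The 2 insulin-like growth factors moved in opposite directions. IGF2 (chr5:13971786-13980128, forward strand, 3 exons), the growth factor that muscle cells secrete during differentiation, ran from 242 to 919 CPM around a median of 663 at 24 h and from 937 to 2696 CPM around a median of 1193 at 36 h. The highest value was that of 36 h replicate 4, the groups did not overlap, and the rise was 2.23-fold (log2 1.16, SE 0.26, adjusted p = 0.00156). Without 36 h replicate 4 the IGF2 value was 0.89 and was still called. IGF1, which stimulates growth through the same receptor, ran from 225 to 655 CPM around a median of 395 at 24 h and from 141 to 364 CPM around a median of 190.5 at 36 h. All 6 libraries of IGF1 lay below the 24 h mean (log2 -0.93, SE 0.27, adjusted p = 0.0189), and 36 h replicate 4 was the highest. The IGF1 call was lost when 24 h replicate 2 or 36 h replicate 3 or 6 was left out, with values from -0.74 to -0.86 and adjusted p from 0.0563 to 0.0995. PIK3CA, the catalytic subunit of the kinase that signals below this receptor, fell by 1.18-fold (log2 -0.24, SE 0.07, adjusted p = 0.0256). The PIK3CA call was lost when 24 h replicate 2 or 3 or 36 h replicate 1, 3 or 5 was left out, with values from -0.20 to -0.24 and adjusted p from 0.0515 to 0.1. The receptor IGF1R (-0.22), the kinase AKT1 (-0.06) and MTOR (-0.35) did not pass with all libraries. The 9 tested genes thus had 1 rise, 2 falls and a median of -0.18. Of all 453 genes tested, 14 (3.09%) rose and 27 (5.96%) fell. Without 24 h replicate 5, IGF1R (-0.27) and MTOR (-0.46) were called, as was MTOR without 36 h replicate 4 (-0.46).

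PDGFRB, the receptor for platelet-derived growth factor on mesenchymal cells, fell by 1.43-fold (log2 -0.52, SE 0.14, adjusted p = 0.0152). Its 5 lower 36 h libraries lay between 915 and 1106 CPM, and replicate 4 lay at 1766. The PDGFRB call was lost without 24 h replicate 2 (-0.44, adjusted p = 0.0705). PDGFRA (-0.13), FGFR2 (-0.04), FGFR3 (0.53) and FGFR4 (-0.18) did not pass. Of 11 tested TGF-beta and BMP genes, 0 were called by edgeR or DESeq2, with 2 at an unadjusted p under 0.05 and a median of -0.03. TGFB1, with the largest value among them (-0.79), did not pass (adjusted p = 0.148). TGFB1 was called without 24 h replicate 5 (-0.96, adjusted p = 0.0475) or 36 h replicate 4 (-1.13, adjusted p = 0.016), and the BMP antagonist GREM1 without 36 h replicate 4 (0.29, adjusted p = 0.0291).

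**Figure D2:**
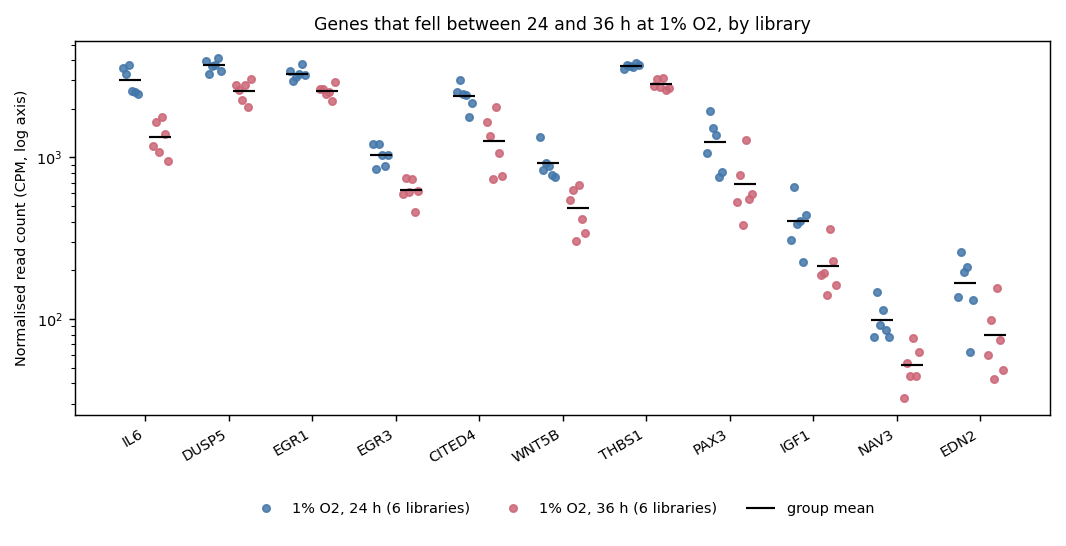
Normalised read counts (CPM, log axis) of 11 genes called lower at 36 h at 1% O2, each point 1 library and each bar the mean of 6. In IL6, DUSP5, EGR1, EGR3, WNT5B, THBS1 and NAV3 every 36 h library lies below every 24 h library.

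Among 13 tested genes that respond to growth factor signalling, 6 fell and 0 rose in edgeR and in DESeq2, with 0 rising values at an unadjusted p under 0.05. In edgeR 27 of all 453 genes tested (5.96%) fell. The list was written after values were seen, so its counts and its median of -0.23 follow in part from how its members were chosen. EGR1, a zinc-finger transcription factor induced within minutes by mitogens, ran from 2966 to 3779.9 CPM around a median of 3265 at 24 h and from 2238 to 2949.9 CPM around a median of 2595 at 36 h. The groups did not overlap (log2 -0.36, SE 0.07, adjusted p = 0.000306). Its relative EGR3 ran from 847 to 1211 CPM around a median of 1039.9 at 24 h and from 458 to 744 CPM around a median of 613 at 36 h, also without overlap (log2 -0.73, SE 0.15, adjusted p = 0.000741). EGR3 was measured by 2 transcripts, which had mean levels of 959 and 79.8 CPM at 24 h and 587 and 40.2 CPM at 36 h. DUSP5, a phosphatase that switches off the kinase ERK and is itself induced by it, ran from 3286 to 4141 CPM around a median of 3709 at 24 h and from 2059 to 3042 CPM around a median of 2704 at 36 h (log2 -0.52, SE 0.10, adjusted p = 9.4e-05). The DUSP5 groups did not overlap either. Without 36 h replicate 4, 7 of the 13 genes fell (61 of all 453), CITED2 being the added one (-1.08). With reference genes as the scale 4 of the 13 fell (9 of all 453).

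The other falls of this list were in CITED4, KLF6 and KLF5. CITED4, a transcriptional coregulator that binds CBP, ran from 1769 to 3012 CPM around a median of 2458 at 24 h and from 741 to 2045 CPM around a median of 1209.6 at 36 h. It fell by 1.90-fold (log2 -0.93, SE 0.18, adjusted p = 0.000306), with overlapping groups and all 6 libraries below the 24 h mean. The zinc-finger factor KLF6 fell from a median of 2436 to 1982 CPM (log2 -0.28, SE 0.06, adjusted p = 0.00131), and its relative KLF5 from 2445 to 2067 CPM (log2 -0.23, SE 0.08, adjusted p = 0.0435). The KLF5 call was lost when 24 h replicate 2, 3, 4 or 5 or 36 h replicate 1, 3 or 6 was left out, with values from -0.17 to -0.23 and adjusted p from 0.0544 to 0.164. JUN (0.03), the kinases PIM1 (-0.06) and SIK1 (-0.07) and the G-protein regulators RGS2 (0.12) and RGS4 (0.33) did not pass.

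Of 10 tested genes of actin and its transcriptional control, also listed after values were seen, 3 fell and 0 rose in edgeR and in DESeq2, with 0 rising values at an unadjusted p under 0.05. TAGLN, an actin-binding protein of smooth muscle and early myogenic cells, fell by 1.19-fold (log2 -0.25, SE 0.08, adjusted p = 0.0386). The TAGLN call was lost when 24 h replicate 2, 3, 4 or 6 or 36 h replicate 1, 3 or 6 was left out, with values from -0.19 to -0.25 and adjusted p from 0.0512 to 0.171. THBS1 was also among the falls of this list, and with reference genes as the scale 2 of the 3 falls were called. Over all 453 genes tested, 27 (5.96%) fell with all libraries in edgeR. ACTA2 (0.08), CNN1 (0.09), CALD1 (-0.04) and ACTB (0.02) did not pass.

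Among secreted signals, IL6 (chr2:30863310-30866004, forward strand, 4 exons), a cytokine that muscle cells also release, fell the most clearly. It ran from 2453 to 3709 CPM around a median of 2929 at 24 h and from 946 to 1774 CPM around a median of 1287 at 36 h, a 2.27-fold fall without overlap (log2 -1.18, SE 0.15, adjusted p = 1.71e-08). Both of its measured transcripts were lower at 36 h, with means of 2978 and 1327 CPM for the main one and 49.2 and 14.6 CPM for the other. Among 10 tested cytokine and immune signalling genes IL6 was the only call by edgeR, and DESeq2 also called IL18 (0.38, adjusted p = 0.043) and STAT3 (-0.30, adjusted p = 0.043). In edgeR IL18 was called higher without 24 h replicate 2 or 3 or 36 h replicate 1, and STAT3 lower without 24 h replicate 5 or 36 h replicate 4. CCL5, with a value of -1.49, did not pass (adjusted p = 0.131) except without 36 h replicate 4 (-1.93, adjusted p = 0.0278). WNT5B (chr1:60852680-60917603, forward strand, 5 exons), a Wnt ligand that acts largely without beta-catenin, ran from 754 to 1345 CPM around a median of 861 at 24 h and from 305 to 679 CPM around a median of 483 at 36 h. It fell by 1.90-fold (log2 -0.93, SE 0.20, adjusted p = 0.001) and the groups did not overlap. WNT5B was the only call of 7 Wnt genes by edgeR, and DESeq2 also called the Wnt-binding proteoglycan GPC3 (-0.62, adjusted p = 0.0362). Among all 453 genes edgeR called 27 (5.96%) lower and DESeq2 called 36 lower. Without 36 h replicate 4 edgeR called GPC3 (-0.63) and the secreted Wnt antagonist SFRP1 (-0.74) as well. WNT5A had a value of 0.12.

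EDN2, which encodes the vasoactive peptide endothelin, ran from 62.2 to 262 CPM around a median of 166 at 24 h and from 42.7 to 156 CPM around a median of 67.0 at 36 h, with wide spreads and 27 to 77 raw counts per library at 36 h (log2 -1.08, SE 0.34, adjusted p = 0.0325). The EDN2 call was lost when 24 h replicate 2, 3 or 4 or 36 h replicate 1, 3, 5 or 6 was left out, with values from -0.91 to -1.06 and adjusted p from 0.0596 to 0.108. EDN2 was the only call by edgeR among 7 tested genes of the endothelin and angiotensin systems, whose median was -0.69. DESeq2 also called the endothelin receptor EDNRB lower (-0.68, adjusted p = 0.043). Among all 453 genes edgeR called 27 (5.96%) lower. In edgeR EDNRB was called lower without 24 h replicate 1 or 5 or 36 h replicate 4, and ACE without 24 h replicate 5 or 36 h replicate 1. NAV3, a microtubule-binding protein, ran from 77.1 to 146 CPM around a median of 89.2 at 24 h and from 32.7 to 75.9 CPM around a median of 49.1 at 36 h without overlap (log2 -0.94, SE 0.21, adjusted p = 0.00104). The NAV3 call was lost with technical replicate 1 alone (-0.58, adjusted p = 0.283) and in a fit of the compared groups alone (-0.96, adjusted p = 0.0568). ENSGALG00000030587 (chr3:30425069-30439118, reverse strand, 30 exons), which has no gene name in the tables used, had 7 to 162 raw counts at 24 h and 11 to 27 at 36 h (log2 -1.11, SE 0.33, adjusted p = 0.0256). The call of ENSGALG00000030587 was lost when 24 h replicate 3 or 4 or 36 h replicate 1, 3, 5 or 6 was left out, with values from -0.77 to -1.05 and adjusted p from 0.0596 to 0.182. LMO7 (-0.67, adjusted p = 0.189) and ENSGALG00000027887 (-0.18, adjusted p = 0.0565) were lower without overlap but did not pass in edgeR. DESeq2 called ENSGALG00000027887 (-0.20, adjusted p = 0.0265) and did not call LMO7.

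HIF1A, the oxygen-regulated subunit of the hypoxia-inducible factor, fell by 1.17-fold, from a median of 4050.2 to 3375 CPM (log2 -0.22, SE 0.07, adjusted p = 0.0371). The HIF1A call was lost when 24 h replicate 2, 3, 4 or 6 or 36 h replicate 1, 2, 3 or 5 was left out, with values from -0.19 to -0.23 and adjusted p from 0.057 to 0.119. HIF1A was the only call among 9 genes of the HIF pathway, whose median was -0.02. Of all 453 genes tested, 27 (5.96%) fell. VEGFA, the HIF target that stimulates vessel growth, had a value of 0.03 (SE 0.05), the kinase PDK1 one of 0.04 and the mitophagy receptor BNIP3 one of 0.12. The glycolysis list of 10 tested genes also held FBP1, FBP2 and PCK1, enzymes of glucose synthesis. Of the 10, 0 were called by edgeR or DESeq2, with 0 at an unadjusted p under 0.05. Their values ran from -0.15 to 0.35 (FBP1), with a median of 0.05. Without 24 h replicate 1, FBP2, one of the 16 genes of the high gene set, was called higher (1.47, adjusted p = 0.0343). That fit kept 36 h replicate 1, which was also above the gap of the set. Of 6 cell cycle genes 0 were called by either tool, with 0 at an unadjusted p under 0.05. PCNA, the sliding clamp of replication, had a value of -0.03 (SE 0.06) and cyclin D1, CCND1, one of -0.10 (SE 0.05). E2F1, a transcription factor of the entry into S phase, had the largest value of these 6 (-0.35, SE 0.28) and did not pass. The E2F1 value was -0.72 without 36 h replicate 4.

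Of 6 tested antioxidant genes 2 fell and 0 rose in edgeR and in DESeq2, with 0 rising values at an unadjusted p under 0.05. Over all 453 genes tested, 27 (5.96%) fell in edgeR. With reference genes as the scale, 0 of the 6 were called. TXNRD1, which keeps thioredoxin reduced, fell by 1.36-fold (log2 -0.44, SE 0.13, adjusted p = 0.0256) and catalase, CAT, by 1.12-fold (log2 -0.17, SE 0.05, adjusted p = 0.0272). The TXNRD1 call was lost when 24 h replicate 2 or 36 h replicate 1, 3 or 5 was left out, with values from -0.34 to -0.43 and adjusted p from 0.0521 to 0.119. The CAT call was lost when 24 h replicate 2, 3 or 4 or 36 h replicate 1, 3 or 6 was left out, with values from -0.13 to -0.17 and adjusted p from 0.0506 to 0.115. The superoxide dismutases SOD1 (0.00) and SOD2 (0.12) did not pass. ATIC, an enzyme of purine synthesis (-0.40, adjusted p = 0.0191), and GPD1L, a relative of glycerol phosphate dehydrogenase (-0.33, adjusted p = 0.0128), fell too and were named after their values were seen. The ATIC call was lost without 24 h replicate 2 or 36 h replicate 3 or 6 (adjusted p from 0.0733 to 0.0839), and the GPD1L call without 36 h replicate 1 (adjusted p = 0.0592). Of 5 apoptosis genes and 7 reference genes 0 were called by edgeR or DESeq2, with 0 at an unadjusted p under 0.05 in both lists.

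**Figure D3:**
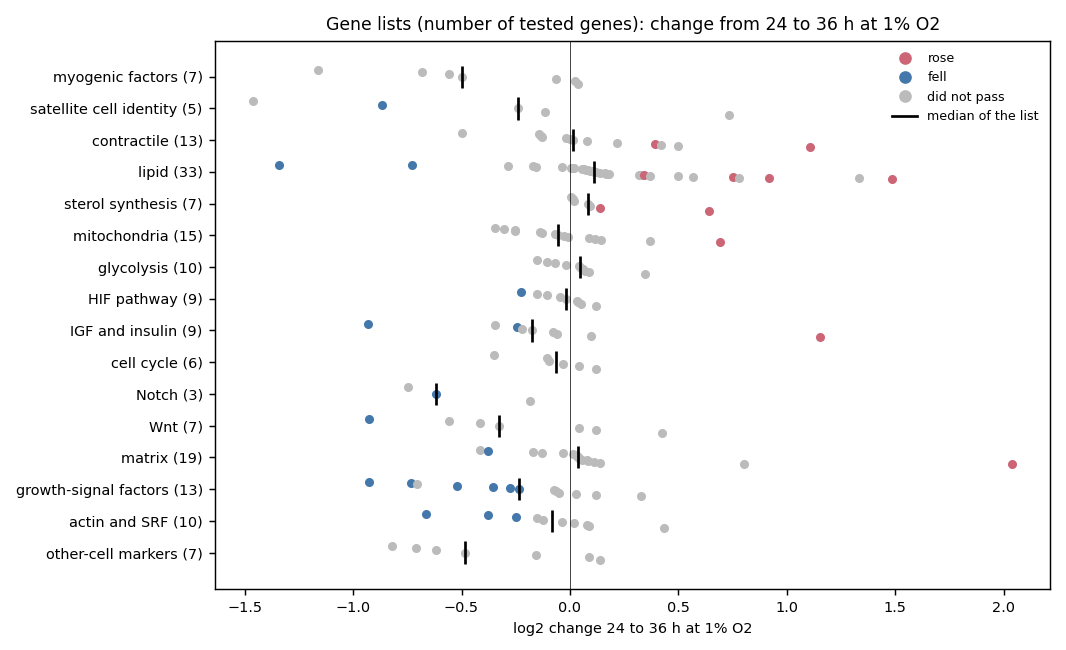
Log2 change from 24 to 36 h at 1% O2 of each tested gene in 16 gene lists, with the number tested in brackets. Red points rose, blue points fell, grey points did not pass and bars are list medians. The growth-signal list holds 6 falls and the lipid list 4 rises and 2 falls, and the glycolysis and cell cycle lists hold no call. Of all 453 genes tested, 14 (3.09%) rose and 27 (5.96%) fell.

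The same 12 h were compared with those at 20% O2, which share no library with the hypoxia groups. The same replicate numbers held few counts at both oxygen levels, as given above. The part of this in the calls and signs that both share was not tested. In normoxia 26 genes (5.74%) changed, 18 higher (3.97%) and 8 lower (1.77%), and 17 did without replicate 3 or without replicate 5. Of the genes called in hypoxia, 14 were also called in normoxia, which is 34.1% of the hypoxia calls and 53.8% of the normoxia calls. In 12 of the 14 the direction was the same, 9 higher and 3 lower. Among the 9 were SPON2, FABP1, CD36, SESN1, LPIN1, DHCR7, LDB3 and PPARG, and among the 3 were WNT5B and PDGFRB. Of the 41 hypoxia calls 35 (85.4%) had the same sign in normoxia, against 320 of all 453 genes (70.6%), and all 14 rises were among the 35.

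SPON2 went from 104 ± 32.2 to 288 ± 48.0 CPM in normoxia and from 21.8 ± 5.71 to 86.6 ± 15.6 CPM in hypoxia. FABP1 went from 322 ± 67.1 to 588 ± 134 CPM in normoxia and from 98.5 ± 8.64 to 275 ± 40.1 CPM in hypoxia. In both genes the difference between the changes did not pass (SPON2 0.56, adjusted p = 0.845; FABP1 0.62, adjusted p = 0.489). PPARGC1A stood at 2071 ± 268 and 2125 ± 329 CPM in normoxia, with a log2 change of 0.04, and the difference of 0.65 from its change in hypoxia did not pass either (adjusted p = 0.163). For MYH1B the difference was 0.72, with an adjusted p of 0.172 in edgeR and of 0.038 in DESeq2.

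The difference between the changes was called in 6 genes (1.32%), and in all 6 the change was lower in hypoxia. No gene had a higher change in hypoxia by edgeR, MYH1B did by DESeq2, and 25 genes (5.52%) of either sign had an unadjusted p under 0.05. IL6 differed most. In normoxia its libraries ran from 859 to 1231 CPM at 24 h and from 1922 to 2437 CPM at 36 h, so it rose there (log2 1.09, SE 0.15) while it fell in hypoxia. The difference was -2.27 (SE 0.21, adjusted p = 4.41e-12). At 24 h the IL6 level was 3027 ± 568 CPM in hypoxia and 998 ± 163 CPM in normoxia, and at 36 h the order of the means was the opposite, 1342 ± 330.0 and 2110.0 ± 181 CPM.

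EGR1 crossed in the same way on a smaller scale. It fell in hypoxia and rose in normoxia (0.29, SE 0.07, adjusted p = 0.0059), with a difference of -0.64 (SE 0.10, adjusted p = 1.2e-05). DUSP5 went from 2742 ± 448 to 3322 ± 422 CPM in normoxia, where it was not called (0.27, adjusted p = 0.0916), and the difference was -0.79 (SE 0.14, adjusted p = 4.6e-05). For KLF6 the normoxia value was 0.12 (adjusted p = 0.342) and the difference -0.40 (SE 0.09, adjusted p = 0.00342). The KLF6 difference was lost with reference genes as the scale, with technical replicate 2 alone and in a fit of the compared groups alone. Of the 6 differences 3 lay in the list of growth factor response genes, which had been written with these values known.

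**Figure D4:**
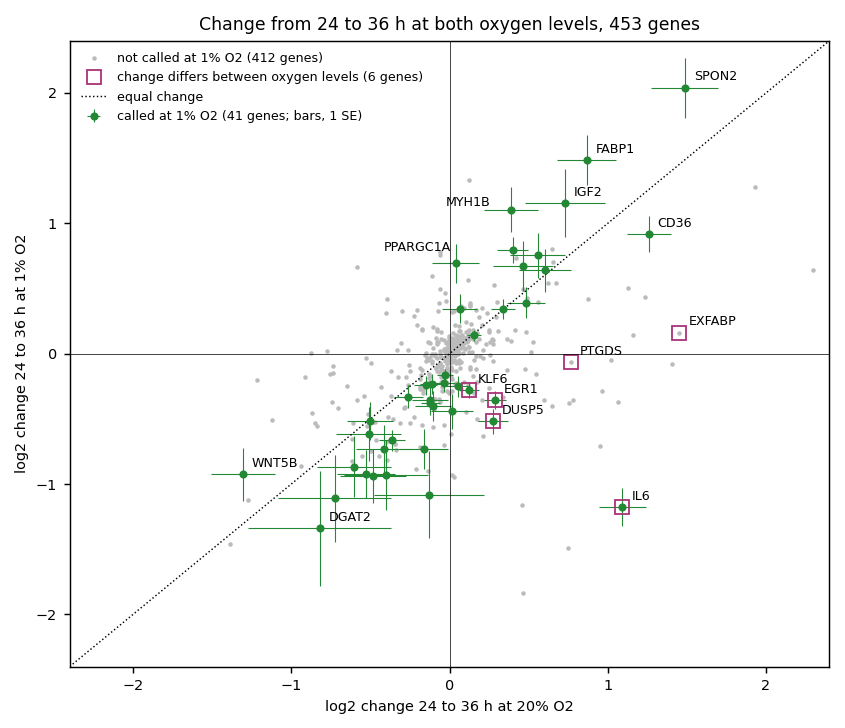
Log2 change from 24 to 36 h at 20% O2 (x axis) and at 1% O2 (y axis) of 453 genes, with bars of 1 SE for the 41 genes called at 1% O2 and squares around the 6 whose changes differ. IL6 lies at 1.09 and -1.18, and SPON2, FABP1 and CD36 lie in the upper right.

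Both secreted lipocalins of the panel with a called difference rose in normoxia and were not called in hypoxia. EXFABP (chr17:865358-868425, reverse strand, 7 exons), an extracellular fatty acid-binding lipocalin of birds, ran from 2037 to 2647 CPM around a median of 2298 at 24 h and from 2357 to 2977 CPM around a median of 2591 at 36 h in hypoxia (log2 0.16, SE 0.15, adjusted p = 0.585). In normoxia it rose from 223 ± 57.3 to 600.0 ± 143 CPM (1.45, SE 0.16), and the difference was -1.29 (SE 0.22, adjusted p = 4.36e-05). PTGDS (chr17:872551-874786, reverse strand, 7 exons), which makes prostaglandin D and lies near EXFABP on chromosome 17, had a value of -0.07 (SE 0.16) in hypoxia. It rose from 1145 ± 166 to 1949 ± 298 CPM in normoxia (0.77, SE 0.16), with a difference of -0.83 (SE 0.23, adjusted p = 0.0404). The PTGDS difference was lost when 24 h replicate 2 or 3 or 36 h replicate 3, 5 or 6 was left out, with values from -0.75 to -0.84 and adjusted p from 0.0568 to 0.128. In all, 17 of 29 alternatives ended it. Among them were library totals or reference genes as the scale (adjusted p = 0.0828 and 0.49) and no filter (0.0514). With technical replicate 1 or 2 alone the adjusted p was 0.342 and 0.459.

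The steps before and after were set beside this one. They share libraries with it, at 24 h and at 36 h, so the values are given side by side and no overlap is drawn from them. A level that is high or low in a shared group moves the steps before and after it in opposite directions. The replicates with few counts also alternate between the times, as given above, and their part in these courses was not tested. From 12 to 24 h in hypoxia 46 genes (10.2%) changed, 11 higher (2.43%) and 35 lower (7.73%). From 36 to 48 h 18 genes (3.97%) changed, 15 higher (3.31%) and 3 lower (0.662%). These counts varied when 1 replicate number was left out, from 23 without replicate 3 to 68 without replicate 1 in the earlier step. In the later step they ran from 0 by edgeR without replicate 3, where 51 genes had an unadjusted p under 0.05, to 45 without replicate 4, and DESeq2 called 24 with all libraries. CD36 stood at 1515 ± 194, 1008 ± 167, 1919 ± 359 and 2065 ± 412 CPM at 12, 24, 36 and 48 h, with a fall before its rise (-0.58, adjusted p = 0.00269). DHCR7 stood at 1731 ± 204, 802 ± 134, 1262 ± 389.9 and 1268 ± 298 CPM, with a fall before its rise (-1.10, adjusted p = 3.52e-06). SESN1 fell to 24 h (-0.31), rose to 36 h and rose again to 3240.1 ± 399.8 CPM at 48 h (0.40, adjusted p = 0.00868).

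PPARGC1A did not pass before 24 h (-0.04) and continued to rise to 2568 ± 365 CPM at 48 h (0.69, adjusted p = 0.00437). LDB3 had risen before 24 h as well (0.61, adjusted p = 0.000332) and did not pass after 36 h (0.08). SPON2, FABP1 and IGF2 did not pass in either neighbouring step, with values of -0.34, -0.07 and 0.09 before 24 h and of 0.07, -0.20 and 0.32 after 36 h. The differences between steps were not tested.

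Among the falling genes, IL6 had first risen from 2157 ± 323 CPM at 12 h (0.49, adjusted p = 0.0228), and it stood at 1027 ± 183 CPM at 48 h. WNT5B had already fallen from 1623 ± 243 CPM (-0.82, adjusted p = 0.00375) and EGR3 from 1428 ± 203 CPM (-0.46, adjusted p = 0.0486). ABCA1 and PDGFRB rose after their fall, to 1686 ± 339 CPM (0.88, adjusted p = 0.00262) and 1732 ± 254 CPM (0.57, adjusted p = 0.01) at 48 h. CAT also rose after its fall, with a value of 0.17 after 36 h (adjusted p = 0.0353). THBS1, EGR1 and DUSP5 did not pass after 36 h, with values between -0.09 and 0.09. EXFABP had risen before 24 h (0.68, adjusted p = 0.00124), as had PTGDS (1.21, adjusted p = 2.88e-07).

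**Figure D5:**
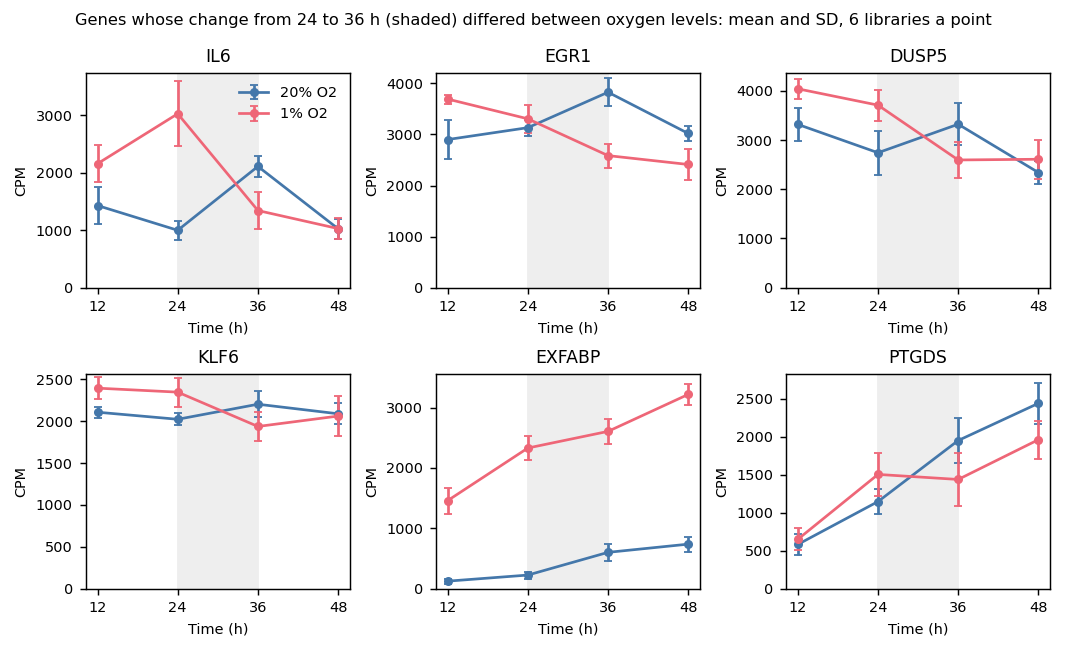
Mean CPM and SD of 6 libraries at 12, 24, 36 and 48 h at 20% O2 (blue) and 1% O2 (red) for the 6 genes whose change in the shaded interval differed between oxygen levels. IL6 falls at 1% O2 and rises at 20% O2 between 24 and 36 h, and its lines cross.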

How the data were processed

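The deposited table holds whole-number counts of targeted RNA-seq reads for 590 transcripts in 106 columns, as total counts per the file headers. Primers followed the galGal6 genome, per the labels' protocols, and coordinates were copied from the deposited table. Aligner and counting rule are not given in the sources. The 2 technical replicates of each library were summed, blanks (1160 cells, 12 of them in the 24 and 36 h hypoxia columns) were read as 0, and 21 genes with 2 transcripts were summed, which left 569 genes in 53 libraries of 171196 to 1448544 counts. Reads carry no molecular identifiers, so counts are not independent molecules. Names matched current symbols for 522 genes, older ones for 4 and none for 43 in a RefSeq table. MSTN and IGF1 are listed by the authors under their names GDF8 and IGF-I.

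Genes were tested with edgeR 4.0.16 in R 4.3.3 (TMM scaling, filterByExpr by group, quasi-likelihood F test) in 1 fit of all 9 groups, with Benjamini-Hochberg adjusted p over 453 genes and a threshold of 0.05. The 116 other genes had too few counts. The biological coefficient of variation was 26%. Standard errors were derived from the log2 change and its F value (absolute change over root F). The code was tested on simulated data. DESeq2 1.42.0, other scalings, no filter, single technical replicates, a fit of the compared groups alone, a replicate block and left-out libraries were tried as alternatives. Leaving out single hypoxia libraries or those under 300000 counts was chosen after seeing the data.

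Genes were named where they were among the 15 highest or lowest called changes, the 6 smallest p-values of the difference, a fixed set of muscle genes, or called members of a list. Members and lists were chosen with earlier results of these data known, and the sterol, growth-signal, actin and SLC25 lists after values were seen. ATIC, FBN1, GPD1L and the genes given as not called beside a list lie outside this rule. Some genes that the fit included are not reported here. Single hypoxia libraries are called by time and replicate number.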

Additional observations from a re-analysis of the deposited data

Results flagged for a closer look

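In 8 of 62 groups of 6 libraries tested among the named genes, 1 library lay far from the other 5. For independent groups, chance alone gives such a gap in about 1 of 20. The groups here are of many genes in the same libraries and are not independent. No excess over chance is therefore drawn from the count. Replicate 4 at 36 h in hypoxia was the library that lay apart for 5 genes. It had 1754 CPM of ABCA1 where the others had 674.7 to 839.1. It had 727 CPM of HEY1 against 338.1 to 468.6, 2696 CPM of IGF2 against 937 to 1580.0, and 1766 CPM of PDGFRB against 915 to 1106. In PPARG it was the low one, with 2644 CPM against 2902 to 3042.

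Replicate 1 at 36 h was low in KLF6, with 1600.0 CPM against 1955 to 2085, and in LDB3, with 2658 CPM against 3264 to 3459. Replicate 1 at 24 h was high in WNT5B, with 1345 CPM against 754.4 to 923.

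In 6 genes the change from 24 to 36 h differed between oxygen levels by the test of the difference in edgeR. On the log2 scale the change in hypoxia minus that in normoxia was -2.271 for IL6, -1.291 for EXFABP, -0.8349 for PTGDS, -0.7944 for DUSP5, -0.6436 for EGR1 and -0.3993 for KLF6.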

How the results depend on the processing

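Of 38 named called genes, 13 kept their call under each alternative run (among them CD36, CITED4, DUSP5, EGR1, EGR3, FABP1, IL6, MYH1B, SESN1, SPON2, THBS1 and WNT5B), and no named called gene changed sign. Among the calls lost with technical replicate 1 alone were RASD1, PPARG and PPARGC1A (edgeR adjusted p = 0.168, 0.0767 and 0.0733). With reference genes as the scale, ABCA1 was among the calls lost (adjusted p = 0.113). The count of 41 calls in hypoxia was 18 with reference genes as the scale, 20 and 23 with technical replicate 1 or 2 alone, 15 in a fit of the compared groups alone, and 22 to 88 with libraries left out. DESeq2 called 54, with 39 shared. The normoxia count of 26 was 16 with reference genes, 15 and 10 with 1 technical replicate, and 17 to 27 with replicates left out. The count of 46 from 12 to 24 h was 27 with reference genes, 13 with technical replicate 2 alone, 22 in the compared groups alone, and 23 to 68 with replicates left out. In DESeq2 24 were higher and 36 lower in that step, against 11 and 35 in edgeR. The count of 18 from 36 to 48 h was 7, 3 and 8 under the same settings, 8 without the libraries with the high gene set, and 0 (edgeR, with 51 at an unadjusted p under 0.05) to 45 with replicates left out. The 6 differences between oxygen levels numbered 4 to 8. The causes were not tested beyond the loss of samples or counts that these settings bring.

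With the replicate number as a block, 43 genes were called in hypoxia, 40 of them shared, and 6 differences, 27 in normoxia, 39 from 12 to 24 h and 19 from 36 to 48 h. Whether the numbers pair the samples is not stated in the labels. Correlations of the same-numbered 24 and 36 h libraries ran from -0.254 to 0.897. Only 1 of 6 correlated best with its own number, which was replicate 1 (0.897). Replicate 1 was also above the gap of the high gene set in all groups but normoxia 24 h. Neither the correlations nor the gene set settle whether the numbers pair. Libraries of 204271 to 251537 counts limit genes with few counts, such as DGAT2.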
